A study of Mus musculus with 62 samples.

Results

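The 10 genes described here take part in the breakdown of the branched-chain amino acids (BCAA) leucine, isoleucine and valine. They were chosen by name and matched by Ensembl identifier to 10 of the 48795 genes of a count table, and all 10 passed edgeR's filter on low counts in every tissue. The table holds 62 bulk RNA-seq libraries of *Fam13a* knockout (KO) and wild-type (WT) mice, both on the C57BL6 background. *Fam13a* is expressed in fat. Visceral adipose tissue (VAT) was gonadal fat and subcutaneous adipose tissue (SAT) was inguinal fat. VAT, SAT and liver of males were sequenced on standard chow (18% of calories from fat) and on high-fat diet (HFD, 45% of calories from fat), with 4 libraries per genotype in each of these groups. VAT and SAT of females were sequenced on HFD alone, with 4 KO and 3 WT libraries per depot. Mice on HFD started the diet at 8 weeks of age and were killed at 22 weeks after 14 weeks of feeding, whereas the age of the sequenced chow mice is not given in the sources used here, so diet and age cannot be told apart. The KO came from embryonic stem cells carrying LoxP sites around exon 5 of *Fam13a*, and no tissue-specific Cre is named. The labels do not say which libraries came from the same mouse, and p-values measure the spread between libraries.

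BCAA are first transaminated in the mitochondrion by branched-chain aminotransferase (*Bcat2*) to branched-chain keto acids. The branched-chain keto acid dehydrogenase complex (BCKDH) then commits them irreversibly to oxidation, and it is switched off by the kinase BCKDK and on by the phosphatase PPM1K. Downstream, leucine is broken down through isovaleryl-CoA dehydrogenase and methylcrotonyl-CoA carboxylase to acetyl-CoA and acetoacetate, while isoleucine and valine yield propionyl-CoA. Muscle and adipose tissue carry out the transamination, the liver is known for low transaminase and high BCKDH activity, and the pathway is induced during adipocyte differentiation.

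By role, the transaminase is *Bcat2* (chr7:45570153-45589711, + strand, GRCm38). The BCKDH core comprises the E1 subunits *Bckdha* (chr7:25629946-25658981, - strand) and *Bckdhb* (chr9:83925145-84124240, + strand) and the E2 subunit *Dbt* (chr3:116513070-116549981, + strand), and its kinase is *Bckdk* (chr7:127904082-127910221, + strand). The leucine arm is represented by *Ivd* (chr2:118861954-118882909, + strand), isovaleryl-CoA dehydrogenase, and by *Mccc1* (chr3:35959312-36000678, - strand) and *Mccc2* (chr13:99948530-100015639, - strand), the subunits of methylcrotonyl-CoA carboxylase. Propionyl-CoA carboxylase consists of the products of *Pcca* (chr14:122534324-122891100, + strand) and *Pccb* (chr9:100982032-101034898, - strand). Exons of *Bcat2*, *Bckdha*, *Mccc1* and *Pcca* share 622, 1171, 613 and 241 bases with genes on the opposite strand. How the counting used strand is not given in the sources used here, so counts over the shared bases may be too low or too high. For *Bckdha* the shared bases are 1171 of 1899 merged exon bases, and levels and ratios that use this gene carry this limit.

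The promoters of *Ivd*, *Mccc1* and *Bckdhb* are shown because the first did not overlap between diets in male VAT, the second did not overlap between diets in male liver, and the third changed most in VAT. They are RefSeq promoters of GRCm38.p6, 250 bases before to 50 bases after the RefSeq start, which can differ from the gene coordinates given above. They are written 5′ to 3′ on the gene's strand, and capitals mark CCAAT or, on the other strand, ATTGG.
*Ivd* (chr2:118861744-118862043, + strand): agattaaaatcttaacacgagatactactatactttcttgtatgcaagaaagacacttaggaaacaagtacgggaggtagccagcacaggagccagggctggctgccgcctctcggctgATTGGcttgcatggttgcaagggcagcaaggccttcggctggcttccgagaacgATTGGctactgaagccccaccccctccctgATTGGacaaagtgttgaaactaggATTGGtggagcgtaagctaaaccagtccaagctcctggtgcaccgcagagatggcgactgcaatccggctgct
*Mccc1* (chr3:36000629-36000928, - strand): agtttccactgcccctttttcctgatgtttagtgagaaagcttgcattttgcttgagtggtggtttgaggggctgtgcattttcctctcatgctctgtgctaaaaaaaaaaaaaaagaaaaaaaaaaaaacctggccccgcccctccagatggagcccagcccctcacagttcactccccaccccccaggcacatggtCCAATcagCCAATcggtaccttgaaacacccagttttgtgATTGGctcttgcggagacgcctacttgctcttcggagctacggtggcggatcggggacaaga
*Bckdhb* (chr9:83924887-83925186, + strand): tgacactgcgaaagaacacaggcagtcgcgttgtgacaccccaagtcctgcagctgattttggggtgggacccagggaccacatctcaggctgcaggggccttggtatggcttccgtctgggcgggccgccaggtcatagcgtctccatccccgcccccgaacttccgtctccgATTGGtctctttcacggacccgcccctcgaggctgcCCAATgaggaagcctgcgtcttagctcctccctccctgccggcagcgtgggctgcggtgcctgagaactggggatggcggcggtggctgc
The *Ivd* promoter held 4 matches, all in the ATTGG orientation, *Mccc1* held 3 and this *Bckdhb* promoter 2. RefSeq listed 12 promoters for 9 of the 10 genes, *Dbt* being the one with no entry. The letters CCAAT, read on both strands, were in 8 of these 12 promoters and in 37.4% of all 32851 promoters of the table, and 11.7% of all promoters held 2 or more matches. The 6 genes with a match were *Bckdhb*, *Bckdk*, *Ivd*, *Mccc1*, *Mccc2* and *Pcca*, which include genes called lower on HFD in male VAT and genes not called there. Of the other letters searched, AGGTCA was in 3 promoters, those of *Bckdhb* and *Pcca* (16.3% of all), CACGTG in that of *Mccc2* (7.15%), GCATGCGC in that of *Pccb* (2.71%) and TCAAGGTCA, which contains AGGTCA, in none (0.423%). A match describes the sequence and does not show that a factor binds there.

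Total counts per library ranged from 4959783 to 28723319 (median 21694089), and the lowest count of any of the 10 genes in a library was 7, for *Bcat2* in liver. *Fam13a*, the targeted gene, was lower in KO than in WT without overlap in male chow SAT (47.4 to 107 against 155 to 179.5 TPM, counts scaled to gene length and library size) and male chow VAT (24.5 to 165 against 171 to 465 TPM). The same held in male HFD SAT (15.7 to 25.2 against 32.1 to 42.98 TPM) and male HFD liver (4.93 to 7.75 against 8.78 to 12.4 TPM). The ranges overlapped in male HFD VAT (6.38 to 13.8 against 7.05 to 15.3 TPM), chow liver and both female depots. The counts cover the whole gene, not exon 5 alone. The 10 adipocyte markers summed to 13275 to 24298 TPM in the fat set with the lowest sum, male HFD VAT. In liver they summed to 984 to 2637 TPM on HFD and to 2622 to 3834 TPM on chow. The list includes *Pck1*, which is not restricted to adipocytes, so the liver sums cannot be read as adipocyte RNA. Hepatocyte markers summed to 83460.5 to 136985 TPM in chow liver and to at most 694 TPM in any fat library. Among male chow VAT libraries, KO replicate 1 and WT replicate 2 held epididymis RNA, with the marker sum reaching 43054 TPM. KO replicate 1 of male chow SAT held skeletal muscle RNA (35481 TPM), and a nuclear ribosomal RNA gene took 75.4% of the counts in HFD liver KO replicate 3. Chow libraries were sequenced on lanes 1 to 3 and HFD libraries on other lanes or another flow cell, so lane and diet cannot be told apart. Each tissue on chow had a lane of its own, and male and female HFD libraries of a depot shared no lane, so neither can tissue on chow or sex be told apart from lane.

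The levels of the 10 genes relative to each other were compared in TPM, which corrects for gene length. In male chow VAT, *Bckdha* was the highest at 147 to 405 (median 277) TPM, and its range overlapped that of the next gene, *Bckdhb*, at 84.6 to 224 (median 193) TPM. *Pccb*, *Mccc2*, *Ivd* and *Dbt* followed with medians of 179, 124, 122 and 83.9 TPM. The lower end held *Bckdk*, *Pcca* and *Bcat2* with medians of 55.5, 47.6 and 42.2 TPM, and *Mccc1* at 16.6 to 52.6 (median 28.9) TPM. Each gene in this order overlapped its neighbour. Genes farther apart could be separated, since *Bckdhb*, *Pccb*, *Mccc2* and *Ivd* lay above all libraries of *Bckdk*, *Pcca* and *Mccc1*, and *Dbt* lay above *Pcca* and *Mccc1*. *Bckdha* had the highest median in all 8 sets of sex, diet and tissue, and *Mccc1* the lowest in all fat sets and in chow liver. In HFD liver *Bcat2* was lowest at 6.07 to 13.5 (median 10.4) TPM.

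Liver differed from fat in the balance between members. The ratio of *Bcat2* to *Bckdha* TPM within a library was 0.0354 to 0.0692 (median 0.0449) in chow liver, against 0.148 to 0.326 (median 0.266) in chow SAT and 0.139 to 0.289 (median 0.196) in chow VAT. No liver library overlapped a fat library in this ratio. Relative to its opposing phosphatase *Ppm1k*, the kinase *Bckdk* had a ratio of 0.0476 to 0.0642 (median 0.0547) in chow liver, 1.02 to 3.63 (median 1.37) in chow SAT and 1.22 to 2.41 (median 1.82) in chow VAT. The phosphatase transcript thus exceeded the kinase transcript in every liver library, whereas every fat library had more kinase than phosphatase transcript. On HFD the same ratio was 1.99 to 5.88 (median 3.27) in male SAT and 2.402 to 4.301 (median 3.47) in male VAT, with HFD liver at 0.0579 to 0.0704 (median 0.0629).

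On chow in males, edgeR's quasi-likelihood test at a false discovery rate (FDR) of 10% called *Bckdhb* alone between the depots, higher in VAT than in SAT by 0.55 ± 0.14 (adjusted p = 0.00201) on the log2 scale, where 23.5% of 19424 genes were higher. The median log2 fold change was 0.11 over the 10 genes and 0.06 over all genes. In liver against SAT, 6 genes were called higher (34.2% of all genes) and 3 lower (45.3%), and in liver against VAT 7 were higher (33.5%) and 3 lower (43.8%). The medians over the 10 genes were 0.77 and 0.48, against -0.24 and -0.22 over all genes. *Bcat2*, *Bckdk* and *Mccc1* were the genes lower in liver in both comparisons, with log2 fold changes of -0.80 ± 0.19, -0.83 ± 0.13 and -0.49 ± 0.13 (SE) against SAT, and their TPM ranges in chow liver lay below those in both depots. Most of the higher calls depended on the scale. Of the 6 genes called higher in liver than in SAT after TMM scaling, *Bckdha* (1.52 ± 0.16) also had the higher median TPM in liver (253 against 214 TPM). The other 5, *Bckdhb*, *Dbt*, *Ivd*, *Pcca* and *Pccb*, had log2 fold changes of 0.92 ± 0.14, 1.17 ± 0.15, 0.72 ± 0.15, 0.88 ± 0.11 and 0.82 ± 0.15, but median TPM in liver of 86.5, 73.6, 74.8, 30.1 and 98.9, below the 115, 90.05, 113, 41.5 and 134 TPM of SAT. All 7 genes called higher in liver than in VAT had a lower median TPM in liver than in VAT, *Bckdha* with 277 TPM in VAT among them.

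The effect of HFD was tested within each of the 3 tissues of male mice. In VAT, 7 of the 10 were lower on HFD and none was higher. Their median log2 fold change was -0.67, against -0.05 over all genes, and 25.1% of the 18975 genes tested were called lower. The genes that fell were all 3 BCKDH core subunits, all 3 genes of the leucine arm and *Pccb*. *Bcat2*, *Bckdk* and *Pcca* did not pass the test, with log2 fold changes of -0.31 ± 0.25 (adjusted p = 0.338), -0.10 ± 0.09 (adjusted p = 0.432) and -0.21 ± 0.13 (adjusted p = 0.215) in edgeR's quasi-likelihood test.

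**Figure D1:**
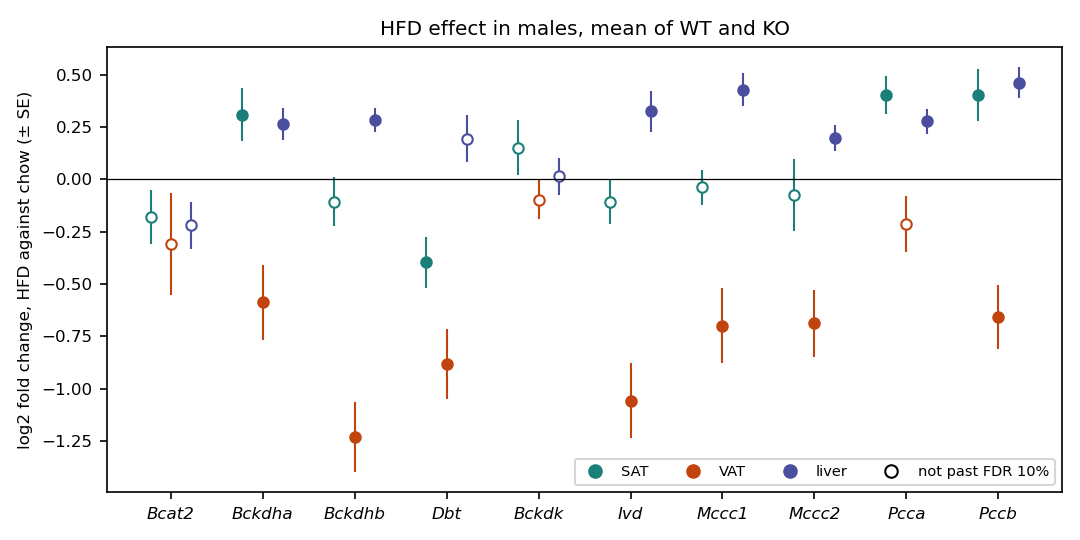
Log2 fold change of HFD over chow (vertical axis, edgeR, bars are SE) for the 10 BCAA breakdown genes (horizontal axis) in male VAT, SAT and liver. Filled points passed the FDR of 10%: 7 genes lie below 0 in VAT, and 7 above 0 in liver.

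*Bckdhb*, which codes for the E1 beta subunit, showed the largest change of the 10 in VAT. On chow it had 62.6, 41.2, 56.6 and 57.4 CPM (read counts scaled to library size) in the 4 WT libraries and 25.5, 41.8, 49.9 and 66.5 CPM in the 4 KO libraries. On HFD it had 23.6, 27.4, 16.7 and 15.3 CPM in WT and 23.3, 21.05, 21.2 and 25.4 CPM in KO. The diets did not overlap within WT, and in KO the lowest chow library, the KO library with epididymis RNA, exceeded the highest HFD library only narrowly. The log2 fold change was -1.23 ± 0.17 (adjusted p = 1.20e-05).

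*Ivd*, the dehydrogenase of the leucine arm, was the only member whose 8 chow and 8 HFD libraries in VAT did not overlap. Its chow levels were 182, 85.8, 141 and 105 CPM in WT and 84.6, 73.1, 92.5 and 122 CPM in KO. Its HFD levels were 66.3, 65.9, 34.99 and 41.9 CPM in WT and 66.5, 54.4, 40.7 and 59.5 CPM in KO. Thus the highest HFD library stayed below the lowest chow library, and the log2 fold change was -1.06 ± 0.18 (adjusted p = 0.000121). *Mccc1* and *Mccc2*, which act after *Ivd*, fell by less, with -0.70 ± 0.18 (adjusted p = 0.00423) and -0.69 ± 0.16 (adjusted p = 0.00217). Their ranges overlapped, with *Mccc1* at 30.3 to 90.7 (median 46.6) CPM on chow and 23.3 to 41.1 (median 34.3) CPM on HFD. Here and below, ranges were not compared over all genes, so a lack of overlap only describes the gene.

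*Dbt*, the E2 core of BCKDH, had 31.4 to 70.5 (median 40.4) CPM on chow and 17.4 to 33.1 (median 24.7) CPM on HFD, a log2 fold change of -0.88 ± 0.17 (adjusted p = 0.000393). *Bckdha* went from 46.4 to 119 (median 77.2) to 41.1 to 73.7 (median 52.2) CPM (-0.59 ± 0.18 (adjusted p = 0.0136)). *Pccb*, the beta subunit of propionyl-CoA carboxylase, went from 47.5 to 104 (median 72.3) to 32.2 to 67.3 (median 48.1) CPM (-0.66 ± 0.15 (adjusted p = 0.00216)), whereas its partner *Pcca* had 25.5 to 45.9 (median 38.4) and 24.1 to 43.6 (median 31.9) CPM. These ranges overlapped for all 4 genes.

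*Bcat2*, the transaminase, was uneven in chow VAT. Its WT libraries had 67.5, 21.4, 70.5 and 23.9 CPM and its KO libraries 18.4, 20.2, 24.5 and 45.9 CPM, against 21.8 to 33.6 (median 30.9) CPM over the 8 HFD libraries. The 8 chow libraries therefore reached both below and above all HFD libraries. *Bckdk*, the kinase, was at 25.4 to 38.9 CPM on chow and 20.4 to 36.3 CPM on HFD, with overlap.

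**Figure D2:**
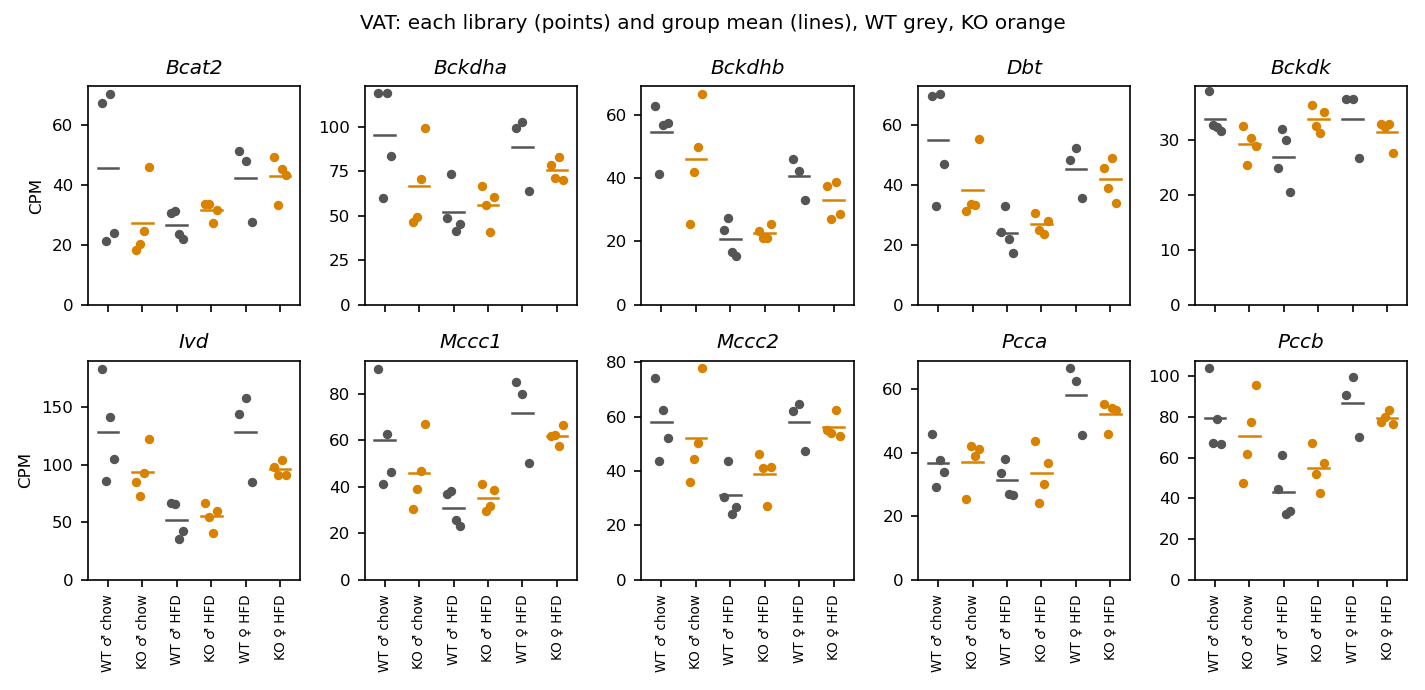
CPM (vertical axes, from 0) of the 10 genes in each VAT library, by genotype, sex and diet (horizontal axes), with lines at group means. Male HFD libraries lie below most male chow libraries for *Bckdhb* and *Ivd*, and females on HFD lie above males on HFD for most genes.

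Within WT, 9 genes were called lower on HFD in VAT (16.9% of all genes), all but *Pcca*, and within KO 2 were called lower, *Bckdhb* and *Ivd* (18.4%). The medians were -0.92 in WT and -0.40 in KO, against 0.03 and -0.13 over all genes. The difference itself, the diet by genotype interaction, called 0 of the 10 genes with edgeR's quasi-likelihood test, DESeq2 or limma-voom, with 1 gene at an unadjusted p under 0.05, and 2.39% of all genes were called. Without KO replicate 1 of chow VAT, which held epididymis RNA, 5 genes were called lower within KO. Leaving out KO replicate 4 of chow VAT or KO replicate 3 of HFD VAT left 1.

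Markers of cell types moved with the diet in VAT. The 10 adipocyte markers summed to 20178 to 67514 TPM on chow and 13275 to 24298 TPM on HFD, and the 8 macrophage markers to 1071 to 4239 and 4392 to 10426 TPM, with no overlap for the latter. No marker of either list was at 0 in these groups. In bulk tissue, fewer adipocytes and less RNA per adipocyte cannot be told apart. The summed TPM of the 10 BCAA genes, as a percent of the summed adipocyte markers in the same library, was 2.200 to 3.399 (median 2.32) on chow and 3.16 to 3.95 (median 3.39) on HFD. The median of the members' sum was thus lower on HFD, whereas the median of their percent of the adipocyte markers was higher, and the diets overlapped in both. With a score of the adipocyte markers in the fit, 6766 of all genes were called, against 8988 without a score. Of the 10 genes 4 were called, *Bckdhb* and *Ivd* lower (-0.51 and -0.38) and *Bcat2* and *Pcca* higher (0.66 and 0.34). With a score of the macrophage markers instead, none of the 10 genes and 347 of all genes were called. The part of cell composition in the result was not tested.

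**Figure D3:**
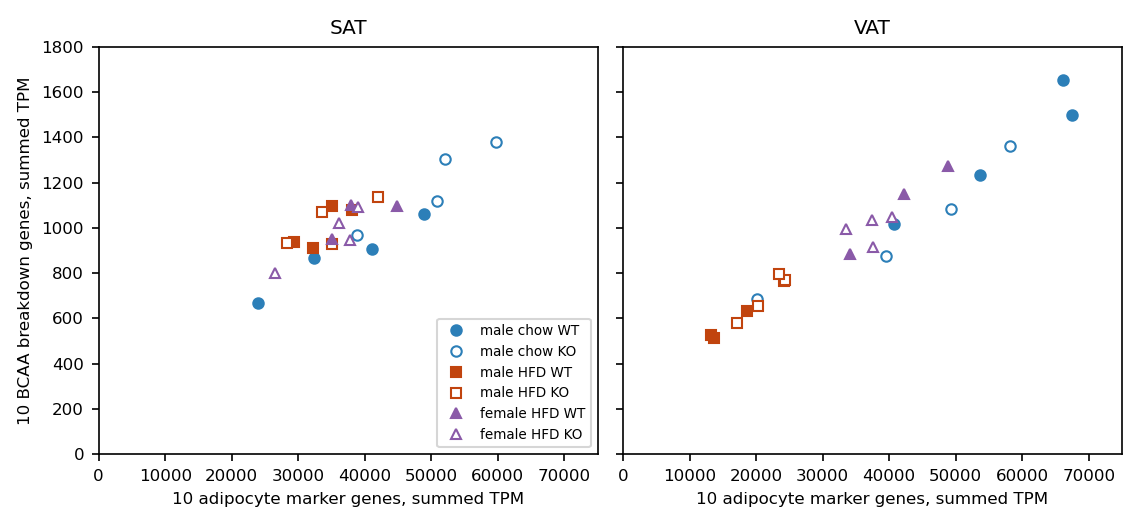
Summed TPM of the 10 BCAA breakdown genes (vertical axes) against summed TPM of 10 adipocyte markers (horizontal axes) in each SAT and VAT library. Male HFD VAT libraries lie at the lower left, with members' sums from 513 to 795 TPM, against 686 to 1653 TPM on chow.

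In SAT the members split. HFD raised *Bckdha* (0.31 ± 0.13 (adjusted p = 0.0470)), *Pcca* (0.40 ± 0.09 (adjusted p = 0.00138)) and *Pccb* (0.41 ± 0.12 (adjusted p = 0.0114)) and lowered *Dbt* (-0.40 ± 0.12 (adjusted p = 0.0107)) in edgeR's quasi-likelihood test. Of all 18366 genes, 29.7% were called higher and 30.0% lower, so the share of members called was not above the background. The median over the 10 genes was -0.06, against -0.02 over all genes. *Bcat2*, *Bckdhb*, *Bckdk*, *Ivd*, *Mccc1* and *Mccc2* had log2 fold changes between -0.18 ± 0.13 and 0.15 ± 0.13 and did not pass.

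*Pcca* had 28.02, 25.98, 24.2 and 31.3 CPM in WT chow SAT and 47.2, 45.3, 45.9 and 45.05 CPM in WT HFD SAT. In KO it had 42.7, 47.5, 37.3 and 38.8 CPM on chow and 48.1, 43.6, 44.1 and 32.2 CPM on HFD. The WT libraries did not overlap between diets, whereas the KO libraries did. *Pccb* followed the same order, with 51.2, 55.8, 33.6 and 46.9 CPM in WT on chow and 63.9, 89.7, 85.4 and 78.9 CPM in WT on HFD, and 95.4, 92.4, 88.6 and 58.00 and 97.8, 72.6, 94.9 and 68.8 CPM in KO. *Bckdha* lost its call when any of 4 libraries was left out (chow KO replicate 4, chow WT replicates 1 and 3, and HFD KO replicate 1), with log2 fold changes from 0.22 to 0.36 over all 23 libraries left out in turn. *Dbt* was at 32.7 to 57.2 (median 47.4) CPM on chow and 29.2 to 38.6 (median 34.3) CPM on HFD, with overlap.

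**Figure D4:**
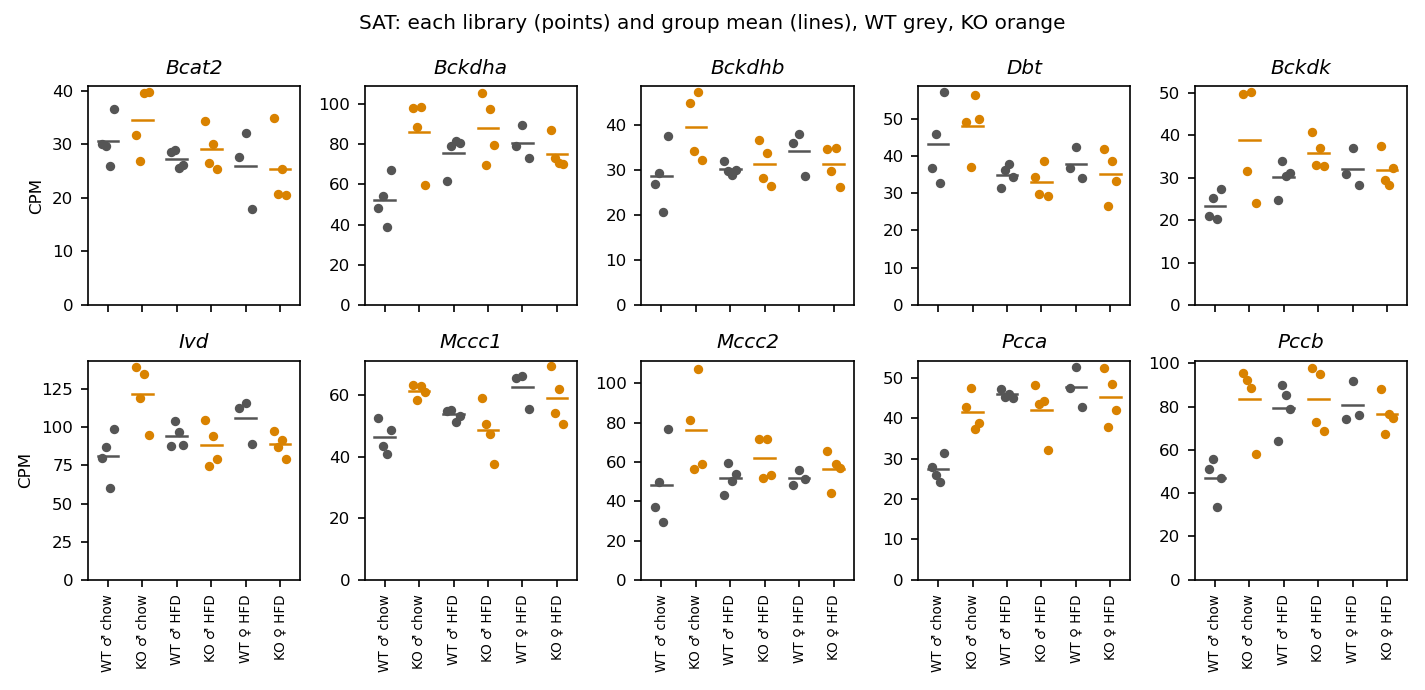
CPM (vertical axes, from 0) of the 10 genes in each SAT library, by genotype, sex and diet (horizontal axes), with lines at group means. In male chow SAT the KO libraries lie above the WT libraries for *Mccc1*, *Pcca* and *Pccb*, and no such gap is seen on HFD.

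Within WT, HFD raised *Bckdha*, *Bckdk*, *Pcca* and *Pccb* in SAT (0.56 ± 0.18, 0.39 ± 0.19, 0.77 ± 0.13 and 0.79 ± 0.18), against 27.9% of all genes called higher. The call of *Bckdk* was near the threshold, was not made by DESeq2 and was lost with 14 of the 23 libraries left out in turn, at values from 0.31 to 0.48. Within KO it lowered *Dbt*, *Ivd* and *Mccc1* (-0.51 ± 0.17, -0.44 ± 0.15 and -0.31 ± 0.12), against 12.2% of all genes called lower. Without KO replicate 3 of chow SAT, or without KO replicate 4 of HFD SAT, none of the 10 was called within KO. The interaction was negative for all 10 genes with a median of -0.49, against -0.03 over all genes, and edgeR's quasi-likelihood test called *Pcca* alone (-0.73 ± 0.18 (adjusted p = 0.0844)), where 1.45% of all genes were called lower. DESeq2 called 4 members, all lower, and limma-voom 1. This call was lost when any of 12 of the 23 libraries was left out (chow KO replicates 1 to 3, chow WT replicates 1 and 3, HFD KO replicates 1, 2 and 4, HFD WT replicates 1, 3 and 4, and female KO replicate 3), with values from -0.83 to -0.65. Without chow KO replicate 4, whose lymph node marker sum of 652 TPM was the highest of the KO libraries, 6 of the 10 genes were called. The number of all genes called in that fit is not given here. Over 13 other settings, DESeq2 and limma-voom among them, 1 to 1334 of all genes were called for this interaction. The lymph node markers summed to 329 to 1142 TPM in the 4 WT chow SAT libraries and to at most 369 TPM in the male HFD libraries of SAT. With a score of these markers in the fit, 2 of the 10 genes were called for the HFD effect, and 4614 of all 18366 genes. With a score of the adipocyte markers 6 of the 10 were called, 2 higher and 4 lower, and 9038 of all genes. Without a score 10961 of all genes were called. The part of either marker list in the result was not tested.

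In liver, 7 of the 10 genes were higher on HFD and none was lower, against 20.6% of 14476 genes called higher. The median log2 fold change was 0.27, against -0.00 over all genes. The changes were small, the largest being *Pccb* (0.46 ± 0.07 (adjusted p = 9.97e-05)) and *Mccc1* (0.43 ± 0.08 (adjusted p = 0.000391)) in edgeR's quasi-likelihood test. *Bckdhb* rose by 0.29 ± 0.06, *Ivd* by 0.33 ± 0.10, *Pcca* by 0.28 ± 0.06, *Bckdha* by 0.27 ± 0.08 and *Mccc2* by 0.20 ± 0.06 (SE). *Bcat2*, *Dbt* and *Bckdk* did not pass, with -0.22 ± 0.11, 0.19 ± 0.11 and 0.01 ± 0.09.

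*Mccc1* was the member whose 16 male liver libraries separated by diet. It had 41.8, 32.9, 42.8 and 34.4 CPM in WT and 28.5, 40.01, 31.7 and 34.1 CPM in KO on chow. On HFD it had 50.5, 51.3, 50.5 and 53.3 CPM in WT and 52.5, 54.7, 43.4 and 49.2 CPM in KO. The lowest HFD value came from KO replicate 3, the library with 75.4% ribosomal RNA, and still exceeded the highest chow value. How many of all genes separated by diet in this way was not counted. *Pccb* had 106, 122, 77.5 and 95.7 CPM in WT and 99.4, 127, 117 and 87.1 CPM in KO on chow, and 136, 146, 159.8 and 160.1 CPM in WT and 163, 157, 118 and 161 CPM in KO on HFD. Only KO replicate 3 on HFD fell within the chow range. *Bcat2*, which did not pass, was at 14.9 to 21.3 (median 17.3) CPM on chow and 7.07 to 20.1 (median 15.6) CPM on HFD, with overlap.

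Within WT the same 7 genes were called higher in liver (15.6% of all genes), and within KO *Bckdhb*, *Mccc1*, *Pcca* and *Pccb* (11.3%). The liver interaction called 0 of the 10 genes with edgeR's quasi-likelihood test, DESeq2 or limma-voom, with 0 at an unadjusted p under 0.05 and 0% of all genes called. Without HFD WT replicate 2, 3 or 4, 4 genes were called within WT.

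The tissues were set against each other in a fit of all 48 male libraries. The HFD effect was lower in VAT than in SAT for 8 of the 10 genes, against 19.1% of 19424 genes. It was higher in liver than in VAT for 8 genes, against 18.8%, and higher in liver than in SAT for 2, *Dbt* and *Mccc1*, against 15.5%. The 8 genes were in both cases all but *Bcat2* and *Bckdk*, and both comparisons share the VAT libraries. *Bckdhb* differed most between VAT and SAT, by -1.10 ± 0.20 (adjusted p = 5.20e-05), followed by *Pccb* with -1.04 ± 0.21 (adjusted p = 0.000234) in edgeR's quasi-likelihood test. Between liver and VAT, *Bckdhb* differed by 1.55 ± 0.20 (adjusted p = 2.26e-07) and *Ivd* by 1.42 ± 0.22 (adjusted p = 4.97e-06). The median differences over the 10 genes were -0.62 for VAT against SAT, 1.01 for liver against VAT and 0.22 for liver against SAT, and those over all genes were -0.04, 0.08 and 0.07.

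A list of 18 further genes of BCAA breakdown covers the cytosolic transaminase *Bcat1*, the mitochondrial carrier *Slc25a44*, the phosphatase *Ppm1k*, the shared E3 subunit *Dld*, the enzymes of the 3 arms, the methylmalonyl-CoA steps and ketone body use. In male VAT, 2 of the 18 were higher on HFD and 10 lower, with a median of -0.40, against 22.2% of all genes higher and 25.1% lower. *Ppm1k* fell (-1.01 ± 0.12 on the log2 scale), as did the valine-arm dehydrogenase *Aldh6a1* (-1.17 ± 0.16). *Acadsb* and *Hsd17b10* of the isoleucine arm fell too (-0.94 ± 0.14 and -0.97 ± 0.16). *Bcat1*, in contrast to the mitochondrial *Bcat2*, rose by 2.08 ± 0.39 (adjusted p = 0.000305) in edgeR's quasi-likelihood test. Its levels were 0.637 to 6.97 (median 2.91) CPM on chow and 4.01 to 23.7 (median 14.4) CPM on HFD.

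In male SAT, 10 of the 18 were higher on HFD and 2 lower, against 29.7% and 30.0% of all genes. *Bcat1* showed the largest change, 3.19 ± 0.35 (adjusted p = 3.44e-06) in edgeR's quasi-likelihood test, from 0.484 to 9.097 (median 2.83) to 18.6 to 45.4 (median 31.3) CPM, without overlap. *Oxct1*, which activates acetoacetate for use as fuel, rose by 0.98 ± 0.15, *Acat1* by 0.65 ± 0.13 and *Auh*, the leucine-arm hydratase, by 0.58 ± 0.09. *Ppm1k* fell (-0.72 ± 0.09), so the phosphatase was lower on HFD in both depots while the kinase *Bckdk*, averaged over the genotypes, passed the test in neither. Within WT alone *Bckdk* was called in both depots, lower in VAT and higher in SAT. In liver, 5 of the 17 genes tested were higher and 4 lower, against 20.6% and 20.1% of all genes. *Hibadh*, *Auh* and *Echs1* rose by 0.58 ± 0.07, 0.37 ± 0.08 and 0.32 ± 0.06, and *Oxct1*, at 5.01 to 8.06 (median 6.22) CPM in chow liver, fell (-0.54 ± 0.13). Of 16 citric acid cycle genes, the route into which propionyl-CoA feeds, 14 were higher on HFD in SAT and none lower, 5 were higher and 3 lower in VAT, and 6 were higher and 5 lower in liver. The counts in VAT were near the shares of all genes called there.

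On HFD, females were compared with males. In VAT, 9 of the 10 members were higher in females, against 16.2% of all genes, and *Bckdk* was the exception (0.15 ± 0.10 (adjusted p = 0.256) in edgeR's quasi-likelihood test). The median difference was 0.80 on the log2 scale, against -0.01 over all genes. *Ivd* had 144, 157 and 84.5 CPM in female WT and 98.1, 90.5, 104 and 91.1 CPM in female KO, and every one of these exceeded the highest male HFD value of 66.5 CPM (1.09 ± 0.19 (adjusted p = 0.000329)). *Mccc1* had 85.1, 79.97 and 49.96 CPM in female WT and 61.6, 62.01, 57.3 and 66.6 CPM in female KO, against 23.3 to 41.1 (median 34.3) CPM in males (1.05 ± 0.18 (adjusted p = 0.000427)). *Dbt*, *Mccc2*, *Pcca* and *Pccb* likewise did not overlap between the sexes, with differences of 0.82 ± 0.17, 0.75 ± 0.17, 0.81 ± 0.14 and 0.82 ± 0.16 (SE). *Bckdhb*, *Bckdha* and *Bcat2* overlapped, with 0.79 ± 0.17, 0.64 ± 0.19 and 0.59 ± 0.25. How many of all genes did not overlap between the sexes was not counted.

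This comparison and the HFD effect in male VAT share the male HFD libraries, and there are no female chow libraries, so the effect of HFD in females was not measured. The adipocyte marker sum was 33485 to 48809.9 TPM in female HFD VAT and 13275 to 24298 TPM in male HFD VAT, and the macrophage sum 1375 to 2615 and 4392 to 10426 TPM, neither of which overlapped. The members' sum was 2.44 to 2.98 (median 2.61) percent of the adipocyte sum in females and 3.16 to 3.95 (median 3.39) percent in males. With either marker score in the fit, none of the 10 genes was called. Of all genes, 515 were called with the adipocyte score and 1559 with the macrophage score, against 6099 without a score. Of the 18 pathway genes, 14 were higher in females and 2 lower (16.2% and 15.9% of all genes), among them *Bcat1* (-1.54 ± 0.40), and *Acadsb*, *Aldh6a1* and *Hibch* were higher by 0.96 ± 0.15, 0.91 ± 0.17 and 0.94 ± 0.20.

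In SAT, edgeR's quasi-likelihood test called 0 of the 10 genes between the sexes, with 1 gene (*Mccc1*, 0.21 ± 0.09 (adjusted p = 0.116)) at an unadjusted p under 0.05, although 19.8% of all genes were called. DESeq2 called 1 gene and limma-voom 0. The median was -0.02, against -0.03 over all genes. Of the pathway genes, *Bcat1* alone was called, lower in females with -1.64 ± 0.34 (adjusted p = 0.00238), with 4.66 to 20.1 (median 9.196) CPM in females and 18.6 to 45.4 (median 31.3) CPM in males. Mammary epithelium markers summed to 398 to 1060 TPM in female HFD SAT and to 1.63 to 29.9 TPM in male HFD SAT. Endothelium markers summed to 336 to 490 and 534 to 862 TPM. Neither sum overlapped between the sexes, whereas the other cell type sums did. The part of cell composition in these results was not tested.

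Averaged over diets, the KO effect on the members was small. Across SAT and VAT of males, with diet and depot as covariates, edgeR's quasi-likelihood test called 0 of the 10 genes, with 1 at an unadjusted p under 0.05, and 3.97% of 18561 genes. In SAT of both sexes it called 0, with 4 at an unadjusted p under 0.05, and 4.33% of all genes. In VAT of both sexes it called 0, with 0 at an unadjusted p under 0.05, and 0.00527% of all genes, and in liver 0, with 1 at an unadjusted p under 0.05, and 0% of all genes. DESeq2 and limma-voom also called 0 in each of the 4. The log2 fold changes lay between -0.26 ± 0.15 (*Ivd*, VAT) and 0.34 ± 0.15 (*Mccc2*, SAT). The KO effect in male VAT minus that in male SAT was negative for all 10 genes, with a median of -0.37 against -0.06 over all genes, but edgeR's quasi-likelihood test called 0 of them, with 2 at an unadjusted p under 0.05, and 0.00539% of all genes. DESeq2 and limma-voom called 0. Without chow SAT KO replicate 4, 1 gene was called for the averaged KO effect in male fat, 1 in SAT and 2 for the difference between depots. Without female SAT KO replicate 2, 2 were called in SAT.

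Among the other pathway genes, *Ppm1k* was lower in KO across male fat (-0.40 ± 0.08 (adjusted p = 0.0129)) and in SAT of both sexes (-0.45 ± 0.07 (adjusted p = 0.00620)) in edgeR's quasi-likelihood test. *Slc25a44*, the mitochondrial BCAA carrier, was higher in SAT (0.34 ± 0.08 (adjusted p = 0.0290)), as was *Bcat1* (0.88 ± 0.27 (adjusted p = 0.0888)).

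**Figure D5:**
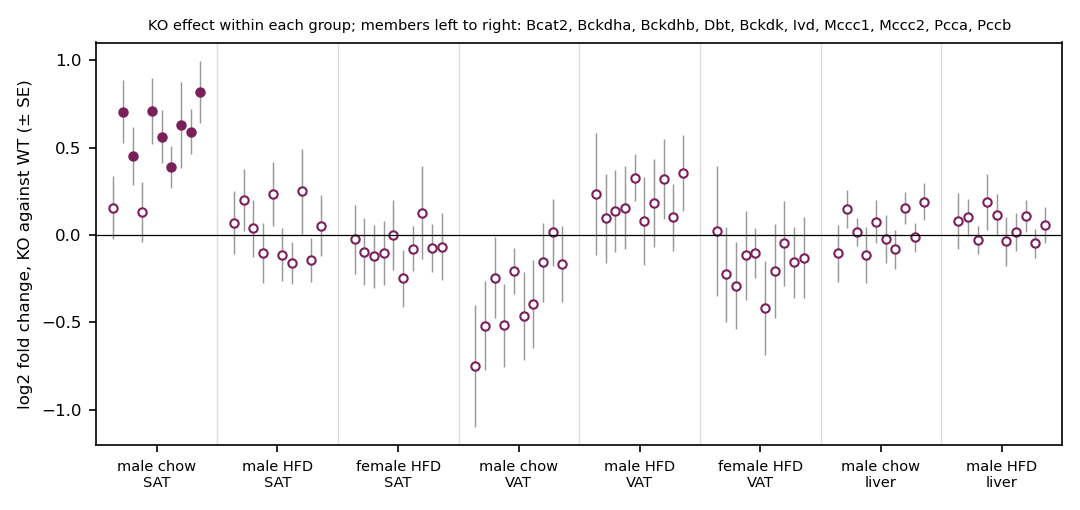
Log2 fold change of KO over WT (vertical axis, edgeR, bars are SE) for the 10 BCAA breakdown genes in each group of sex, diet and tissue (horizontal axis). Filled points passed the FDR of 10%, which occurred in male chow SAT alone, for 8 genes.

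The groups differed in where KO and WT could be told apart. In male chow SAT, 8 of the 10 genes were higher in KO, against 18.5% of all genes called higher. Their median log2 fold change was 0.58, against 0.01 over all genes. *Bcat2* and *Dbt* did not pass (0.16 ± 0.18 (adjusted p = 0.540) and 0.13 ± 0.17 (adjusted p = 0.581) in edgeR's quasi-likelihood test). *Pccb* had the largest change (0.82 ± 0.18 (adjusted p = 0.00768)), and its KO values, given above, exceeded all WT values. *Pcca* changed by 0.59 ± 0.13 (adjusted p = 0.00769), again without overlap. *Mccc1* had 63.4, 58.4, 63.04 and 61.2 CPM in KO and 52.7, 43.6, 40.8 and 48.6 CPM in WT, without overlap (0.39 ± 0.12 (adjusted p = 0.0303)).

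*Bckdha* had 97.98, 88.5, 98.4 and 59.5 CPM in KO and 48.3, 54.2, 38.9 and 67.03 CPM in WT (0.70 ± 0.18 (adjusted p = 0.0148) in edgeR's quasi-likelihood test). *Bckdk*, the kinase that restrains the complex, had 49.9, 31.7, 50.2 and 24.02 CPM in KO and 20.9, 25.3, 20.3 and 27.3 CPM in WT (0.71 ± 0.19 (adjusted p = 0.0169)). *Ivd* had 139.7, 119, 135 and 94.9 CPM in KO and 79.8, 87.1, 60.2 and 98.9 CPM in WT (0.56 ± 0.15 (adjusted p = 0.0196)). In all 3 genes KO replicate 4 was the lowest KO library and the single one inside the WT range. *Mccc2* and *Bckdhb* changed by 0.63 ± 0.25 (adjusted p = 0.0746) and 0.45 ± 0.17 (adjusted p = 0.0605), and each lost its call when KO replicate 1 or 3 or WT replicate 1 or 3 was left out, with *Mccc2* between 0.42 and 0.98 and *Bckdhb* between 0.34 and 0.63. Of the 18 pathway genes 12 were higher and 1 lower (18.5% and 12.7% of all genes), and of the 16 citric acid cycle genes 15 were higher.

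Marker levels differed between the same libraries. The lymph node markers summed to 329 to 1142 TPM in WT chow SAT and to 7.45 to 652 TPM in KO, where the highest value was that of KO replicate 4. Adipocyte markers summed to 38867 to 59788 TPM in KO and 23961 to 48919 TPM in WT. Macrophage markers summed to 1104 to 2578 TPM in KO and 2029 to 3460.0 TPM in WT, beige adipocyte markers to 195 to 784 and 105 to 243 TPM, and skeletal muscle markers to 352 to 35481 and 160.5 to 778 TPM. Each of these 5 sums overlapped between the genotypes. With a score of the adipocyte markers in the fit none of the 10 genes and 1 of all genes was called, and with a score of the lymph node markers none of the 10 and 21 of all genes. The part of cell composition in this result was not tested. The ribosomal RNA gene took 22.6, 18.3, 0.0259 and 14.4% of the counts in the 4 WT libraries of male chow SAT. In the 4 KO libraries it took 18.2, 0.0213, 0.0211 and 3.24%. Total counts were 9100628 to 18251104 in WT and 10207600 to 26209382 in KO. Whether these differences between libraries bear on the KO effect was not tested.

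In the other 7 groups edgeR's quasi-likelihood test, DESeq2 and limma-voom each called 0 of the 10 genes for the KO effect. In male HFD SAT 0 of the 10 were at an unadjusted p under 0.05 and 0% of all genes were called, and in female HFD SAT 0 and 0.0109%. In VAT, 2 of the 10 were at an unadjusted p under 0.05 in chow males (0.29% of all genes called), 1 in HFD males (0%) and 0 in HFD females (0.00527%). In liver, 0 were at an unadjusted p under 0.05 on chow (0.00691% of all genes called) and 0 on HFD (0.0622%). In male HFD SAT the log2 fold changes of the 10 genes lay between -0.16 ± 0.12 and 0.25 ± 0.24, so *Pccb*, for instance, changed by 0.05 ± 0.18 there. In male chow VAT *Bcat2* had -0.75 ± 0.35 (adjusted p = 0.359) in edgeR's quasi-likelihood test, with the uneven WT libraries given above. Whether the KO effect differed between the diets is the interaction reported above, which called *Pcca* alone in SAT with edgeR's quasi-likelihood test and 4 genes with DESeq2.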

How the data were processed

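The authors aligned RNA-seq reads (TruSeq Stranded kit) to GRCm38 with STAR (2.5.3a per the submitters' processing notes) and the Gencode M11 annotation, and deposited raw read counts per gene, not normalized, in a table of 48795 genes for 62 libraries. Symbols and merged exon lengths came from GENCODE M21 and 99.26% of genes had a symbol. Groups came from the labels, and replicates were numbered in the order of deposition.

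Counts were tested with edgeR 4.0.16 (R 4.3.3): TMM scaling, filterByExpr by group, and the quasi-likelihood F test of the legacy fit, with Benjamini-Hochberg adjustment over all genes and an FDR of 10%. Diet, sex and single-group KO effects were contrasts of group means within a tissue, tissue differences used the 48 male libraries, and averaged KO effects used diet with depot or sex as covariates. RNA quality, days to extraction and PEER factors of the study's model were not used here. SE is the absolute log2 fold change divided by the square root of F. CPM used TMM library sizes. TPM left out 378 ribosomal and mitochondrial RNA genes, a choice made after seeing that a ribosomal RNA gene varied between libraries. Alternatives used DESeq2 1.42.0, limma 3.58.1 (voom) and 6 surrogate variables from sva 3.50.0. The scripts were tested on simulated data.

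The members, gene lists, motifs and tests were chosen with earlier results of these data known. Named were all 10 members, of the other pathway genes at most 5 per comparison by p among those called, and the 5 genes whose profile was most like that of the members. One pathway gene that this rule names in liver is not reported here. Citric acid cycle and cell type lists were described by counts and sums (2 markers, *Tf* and *Ccl21a*, had no single match).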

Additional observations from a re-analysis of the deposited data

Results flagged for a closer look

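In 9 of 140 groups of 4 libraries, counted over the 10 genes, the highest or lowest library lay far from the other 3 by Dixon's criterion. Chance gives such a library in about 1 in 20 groups. In HFD liver, KO replicate 3 was low for *Bckdha* (149 CPM, the others 254 to 264) and *Pccb* (118 CPM, the others 157 to 163), and this library had 75.4% of its counts in a ribosomal RNA gene. WT replicate 1 of HFD liver was low for *Bckdha* (189 CPM, the others 234 to 240.0) and *Dbt* (87.6 CPM, the others 116 to 120.2), and WT replicate 3 of chow liver was low for *Bckdk* (11.8 CPM, the others 17.0 to 17.5). In SAT, HFD WT replicate 1 was low for *Bckdha* (61.5 CPM, the others 78.95 to 81.7). In VAT, chow KO replicate 4 was high for *Dbt* (55.3 CPM, the others 31.4 to 33.8), chow WT replicate 1 was high for *Bckdk* (38.9 CPM, the others 31.6 to 32.7), and female HFD KO replicate 4 was low for *Bckdk* (27.6 CPM, the others 32.4 to 33.0).

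The effect of HFD differed between groups in 19 tests of the difference itself at an FDR of 10%. Between the genotypes of SAT it differed for *Pcca* (KO minus WT, -0.73 on the log2 scale). In VAT minus SAT it differed for *Bckdha* (-0.87), *Bckdhb* (-1.10), *Dbt* (-0.46), *Ivd* (-0.93), *Mccc1* (-0.64), *Mccc2* (-0.59), *Pcca* (-0.60) and *Pccb* (-1.04). In liver minus SAT it differed for *Dbt* (0.64) and *Mccc1* (0.52). In liver minus VAT it differed for *Bckdha* (0.88), *Bckdhb* (1.55), *Dbt* (1.11), *Ivd* (1.42), *Mccc1* (1.16), *Mccc2* (0.91), *Pcca* (0.52) and *Pccb* (1.14). The comparisons with VAT share its 16 male libraries.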

How the results depend on the processing

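Counts of members called are given as the value reported and then the value under each alternative that moved it by over 1.5 times. All genes called fell with the scores too. KO in male chow SAT went from 5741 to 1 (adipocyte score) and 21 (lymph node score). HFD in VAT went from 8988 to 6766 (adipocyte score) and 347 (macrophage score), and female minus male in VAT from 6099 to 515 and 1559. For most other moves the number of all genes called is not given here, so they are not read as results about the members. The cause of a move was not tested. HFD in SAT went from 4 to 2 with a lymph node score as covariate, within WT from 4 to 2 (adipocyte score) and 2 (lymph node score), and within KO from 3 to 1 (without the 2 libraries with most muscle RNA) and 1 (FDR of 5%). Diet by genotype in SAT went from 1 to 4 (DESeq2) and to 0 without the 2 libraries from another flow cell, with males alone, with either marker score, without the muscle RNA libraries, or at an FDR of 5%. KO in male chow SAT went from 8 to 0 with either score, with reversed values for *Bckdhb* (-0.029) and *Mccc2* (-0.089) under the adipocyte score. Under that score *Bckdk* within WT on HFD in SAT was -0.079. Female minus male in SAT went from 0 to 1 (DESeq2 size factors, at least 10 counts in every library, DESeq2, without the other flow cell, lymph node score, without the ribosomal RNA gene) and 2 (adipocyte score). KO in SAT went from 0 to 2 with males alone and 2 with 6 surrogate variables. HFD in VAT went from 7 to 4 (adipocyte score), 0 (macrophage score) and 2 (KO alone), within WT from 9 to 2 and 0 with these scores, and within KO from 2 to 6 (without the 2 libraries with epididymis RNA) and 0 (macrophage score). Under the adipocyte score, HFD values in VAT reversed for *Bcat2* (0.66), *Bckdha* (0.19), *Mccc1* (0.060), *Mccc2* (0.0035), *Pcca* (0.34) and *Pccb* (0.022), and within WT for *Bcat2* (0.51), *Bckdha* (0.14), *Mccc1* (0.0057) and *Pcca* (0.48). Under the macrophage score values called before reversed for *Bckdha* (0.11) and *Mccc1* (0.17), within WT for *Bcat2* (0.15) and within KO for *Ivd* (0.26). Female minus male in VAT went from 9 to 0 with either score, reversed for *Bcat2* (-0.59), *Bckdha* (-0.35), *Bckdhb* (-0.13), *Dbt* (-0.031), *Mccc2* (-0.14) and *Pccb* (-0.062) under the adipocyte score and for *Bcat2* (-0.25) under the macrophage score. HFD in liver went from 7 to 4 (KO alone), within WT from 7 to 4 (FDR of 5%) and within KO from 4 to 2 (no filter on low counts). On chow, VAT minus SAT went from 1 to 3 (without the epididymis RNA libraries) and liver minus VAT from 10 to 5 (at least 10 counts in every library). This last filter left *Bcat2* untested. HFD in liver minus SAT went from 2 to 4 (at least 10 counts in every library, bias-corrected fit, without the other flow cell, the epididymis RNA libraries or the ribosomal RNA gene). Leaving out each library in turn gave 0 to 3 for HFD within KO in SAT, 1 to 5 in VAT, 4 to 8 within WT in liver, 0 to 6 for diet by genotype in SAT, 0 to 1 in VAT, 0 to 1 for female minus male in SAT, 0 to 1 for KO in male fat, 0 to 2 in SAT, 0 to 2 for its difference between depots, and 2 to 4 for HFD in liver minus SAT. Single values of the 10 genes kept their side of the FDR of 10%, and their direction where called, in 8505 of 8780 values with a library left out and in 3615 of 3817 under other alternatives. These include 244 and 132 values that were not called in either fit and changed sign, such as *Bcat2* (0.73) and *Bckdk* (0.12) for HFD in VAT under the macrophage score. The scores for macrophages and lymph nodes and the settings without libraries of epididymis or muscle RNA or without the ribosomal RNA gene were chosen after seeing the data. No paired analysis was possible because the labels carry no replicate numbers and link no libraries across groups. Depth limits *Bcat2* in liver, with 7 counts in the library with the fewest.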

Other observations

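Over the 12 group means of SAT and VAT, the 10 members followed a shared profile to different degrees. The correlation of a gene's log2 CPM with the mean of the other 9 was 0.94 for *Ivd*, 0.91 for *Mccc1*, 0.90 for *Bckdha* and *Pccb* and 0.89 for *Mccc2*, and it was 0.80 for *Dbt*, 0.79 for *Bckdhb*, 0.67 for *Pcca*, 0.59 for *Bckdk* and 0.44 for *Bcat2*. The points share tissue, diet and sex differences in cell composition, so these are descriptions. In all, 15817 genes, the 10 members included, had at least 10 counts in 23 or more of the 46 fat libraries. Of these, the genes outside the members most like the mean of the 10 members were *Dlc1* (Pearson's r = 0.985), *Akt2* (0.979), the insulin-signalling kinase, *Pparg* (0.975), the adipocyte nuclear receptor, *Lipe* (0.955), hormone-sensitive lipase and a gene of the adipocyte list, and *Thrb* (0.953), a thyroid hormone receptor.

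Within enzyme complexes, the ratio of *Bckdhb* to *Bckdha* TPM was 0.502 to 0.890 (median 0.711) in male chow VAT and 0.352 to 0.544 (median 0.409) in male HFD VAT, and 0.315 to 0.388 (median 0.341) and 0.315 to 0.415 (median 0.352) in male liver on chow and on HFD. In male SAT it was 0.407 to 0.591 (median 0.566) on chow and 0.351 to 0.549 (median 0.382) on HFD. The ratio of *Mccc1* to *Mccc2* was 0.217 to 0.313 (median 0.233) in male chow VAT and 0.184 to 0.310 (median 0.233) in male HFD VAT. The ratio of *Pcca* to *Pccb* was 0.229 to 0.364 (median 0.262) and 0.247 to 0.446 (median 0.360) in the same sets. The median ratio of the E1 subunits was thus lower on HFD in both depots of males, with overlap of the diets, whereas the medians of the methylcrotonyl-CoA carboxylase ratio were equal to the digits given on both diets.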
